A study of Mus musculus with 2 samples.

Results

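The outermost layer of tumors in the cerebellum, next to adjoining tissue, was compared with their deep interior in 2 spatial transcriptomic sections. Both tumors are labelled as breast tumors, which the markers of section 1 go against (below). Of 7423 array spots under tissue, 1442 were tumor spots. Of these, 407 lay within 2 steps of tissue outside the tumor (the rim, 168 spots in section 1 and 239 in section 2) and 558 lay 6 or more steps inside (the deep interior, 355 and 203 spots). The 477 tumor spots between them, at depths of 3 to 5 steps, and the 445 spots of adjoining tissue within 2 steps of a tumor spot (156 and 289, called outside below) served as references.

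Both sections came from a model of HER2-positive breast cancer metastasis to the brain, made to study the cell types and surroundings of such tumors. HP organoids were grown from mammary tumors of C57BL/6 (B6) mice that carry a human HER2 transgene with an activating mutation, driven by an actin promoter behind a Lox-STOP-Lox cassette, and an activating PIK3CA mutation. Cre was given by adenovirus into the mammary gland. The organoids were labelled with luciferase by lentivirus and injected into the cerebellum of syngeneic B6 mice. The labels call the organoids HP-F1 +cre for section 1 and HP-B6 +cre for section 2, give the genotype HP and NO treatment for both, and state no age. What F1 stands for is not given in the sources used here. Every group described here is a zone of an untreated tumor labelled HP, and no section without tumor was used. Transcripts were read from fixed, paraffin-embedded tissue with probes against mouse genes on the Visium CytAssist array, so the human HER2 transgene was not checked. Each spot covers an area in which several cells, of more than 1 type, can lie, and in such data fewer cells of a type and less RNA per cell cannot be told apart.

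Tumor spots were chosen by their own readout. In section 1 the rule asked for a summed *Col1a1* and *Col3a1* level of at least 10000 CPM (a gene's UMIs scaled to a common total per spot or library), and in section 2 for a summed *Epcam*, *Krt7* and *Krt8* level of at least 5000 CPM. Both also needed at least 20000 UMIs (unique molecular identifiers, each standing for 1 captured probe molecule). Depth was counted in steps on the hexagonal array to the nearest spot under tissue that was not tumor and had at least 3 of its 6 neighbors not tumor. Positions off the tissue or off the array were counted as neighbors that are not tumor but did not themselves serve as border, so depth measures the distance to tissue and not to a cut edge. Tumor spots within 2 steps of a position off the tissue made up 20.2% of rim and 12.4% of deep spots in section 1, and 23.4% and 0.493% in section 2. In section 2 a smaller, separate tumor mass had rim but no deep spots, and leaving it out left 189 rim spots. The 2 sections share 3096 spot barcodes, because both arrays use the same barcode set.

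The 83 tumor spots of section 1 at depth 1 had a median of 24398 CPM of the 2 collagens (lowest 10339) and the 82 spots just outside a median of 7711 CPM. Of those 82 spots, 29 missed the collagen level alone, 31 the UMI minimum alone and 22 both. In section 2 the 127 spots at depth 1 had a median of 6501 CPM of the 3 epithelial genes (lowest 5006) and the 165 spots just outside 3489 CPM, where 86 missed the marker level alone, 34 the UMI minimum alone and 45 both. The genes of the rule were also lower at the rim than in the deep interior, and as a description of the choice carry no test. *Col1a1* and *Col3a1*, the main fibrillar collagens, stood at 18028 and 8300.3 CPM at the rim of section 1 and 22125 and 11206 CPM in its deep interior. In section 2 *Epcam*, an epithelial adhesion molecule, and the simple epithelial keratins *Krt7* and *Krt8* stood at 1893, 4152 and 1629 CPM at the rim and 2343, 5066 and 2043 CPM in the deep interior.

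The label of a breast tumor was set against cell type markers. In section 2, 10 epithelial markers other than those of the rule summed to 5582 CPM at the rim and 6037 CPM in the deep interior. In section 1 they summed to 24.3 and 17.6 CPM, while the 8 fibroblast markers summed to 18927 and 24252 CPM, against 438 and 474 CPM in section 2. The tumor of section 1 therefore nearly lacked epithelial transcripts, which goes against the label of a breast carcinoma, and whether it carries the HP alleles was not checked. It is called collagen-rich here, and the tumor of section 2 is called epithelial. Fibroblast genes in section 1 and epithelial genes in section 2 are not independent of the rule.

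**Figure D1:**
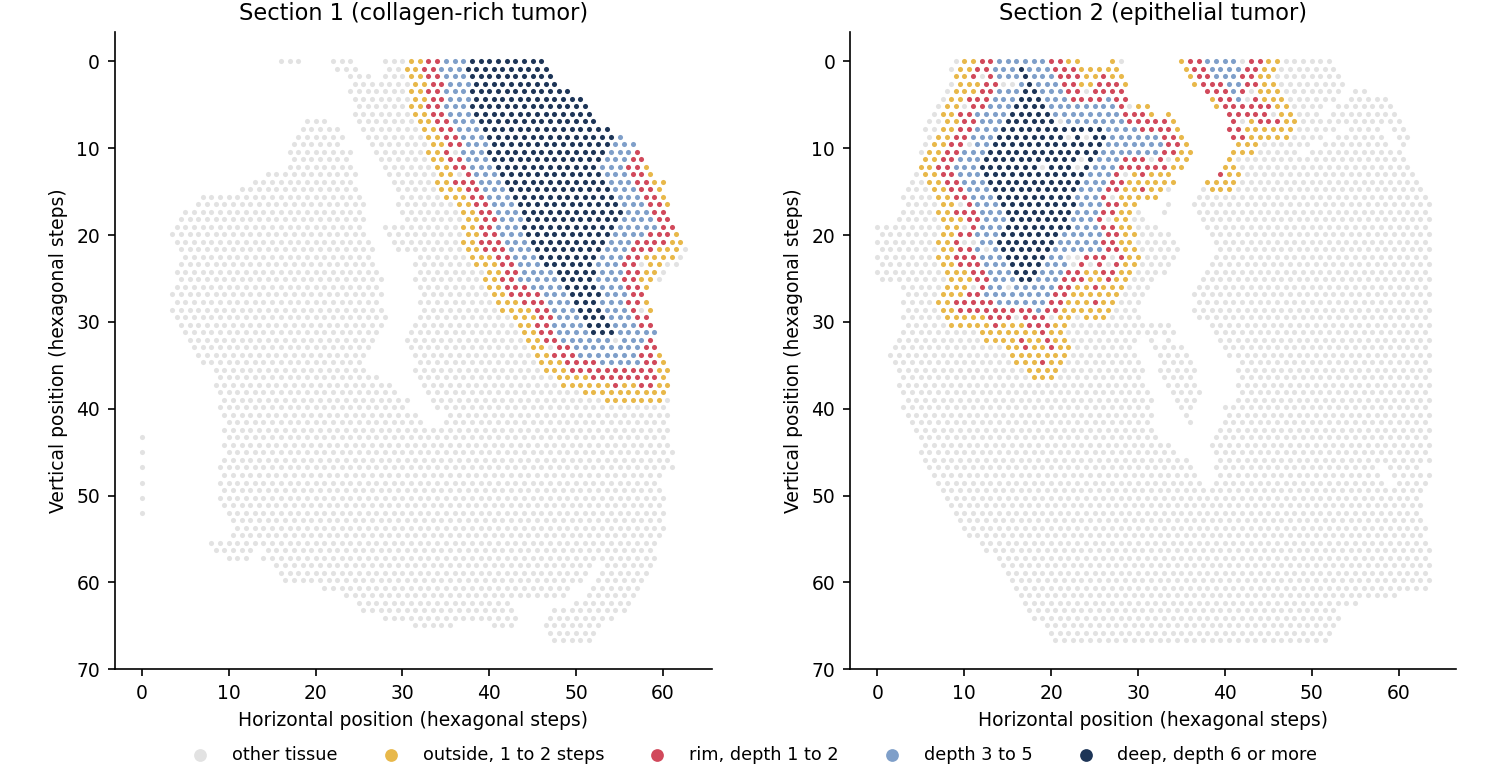
Map of the zones in sections 1 and 2, with horizontal and vertical position in hexagonal steps and 1 point per spot under tissue. The rim (168 and 239 spots, red) and the outside tissue (156 and 289 spots, yellow) follow the borders of 1 large mass in each section and of a smaller mass in section 2, around the deep interior (355 and 203 spots, dark blue). Tumor reaches the top edge of the array in both.

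Where a tumor meets brain, its outer cells lie among axons, glia and vessels, and the adjoining tissue contributes transcripts of its own. Oligodendrocytes wrap axons in myelin, whose proteins are built from a small set of abundant messages. Macrophages that take up myelin debris or dead cells store its lipid and express a recognizable set of genes for lipid binding, lysosomal function and tissue repair. Class I major histocompatibility complex (MHC) molecules display peptides on nearly all cells, and interferons raise their transcription along with that of antiviral genes.

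Rim spots held fewer UMIs than deep spots. Total UMIs were part of the rule, which set a minimum for tumor spots, so this difference carries no test. The mean ratio of rim to deep medians over the 2 sections was 0.714, and 0.664 with a UMI minimum of 10000. The median spot held 33500.5 UMIs at the rim and 60930 in the deep interior of section 1, a ratio of 0.550, and 39739 and 45249 in section 2, a ratio of 0.878. Outside, the median was 16517 and 20251 UMIs. By steps, the median in section 1 was 17993 UMIs at the first step outside, 27928 at depth 1, 41130 at depth 2 and 49642 at depth 3, and in section 2 it was 21545, 36065, 42473 and 41891. UMIs were summed over the spots of each zone, and all levels below are CPM of these sums, scaled by the trimmed mean of M values (TMM). Levels given by depth come from sums over each single step with TMM factors of their own, so they are comparable among depths but not to the digit with levels of whole zones. The sums held 2620243 to 21510627 UMIs, so that the precision is set by the number of sections. The edgeR fit below takes out the level of each section. Its p-values therefore set the mean difference between 2 zones against how far the differences among the 4 zones disagree between these 2 sections.

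Markers of the adjoining cerebellum set the rim apart most clearly. In a fit over 18562 genes with edgeR's quasi-likelihood test and Benjamini-Hochberg adjustment, 3 genes were called higher at the rim, 0.0162% of those tested, and all 3 belong to the oligodendrocyte lineage. No gene was called lower (0%), and no gene was called between the rim and the outside tissue (0%, with the smallest adjusted p at 0.0545). Before adjustment, edgeR gave 1971 genes a p under 0.05 between rim and deep interior (1479 higher and 492 lower at the rim) and 4515 between rim and outside. DESeq2, with the same design, called 180 genes higher and 80 lower at the rim than in the deep interior, and 1015 higher and 952 lower than outside.

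By direction alone, 5712 genes (30.8%) were higher and 6137 (33.1%) lower at the rim in both sections, and 6703 had opposite signs. A difference of over 1 unit of log2(CPM + 1) in both sections, the scale of all differences within a section given below, was reached by 267 genes higher at the rim (1.44%) and by 1 gene lower, *Ccl5* (0.00539%), with 6 that large in opposite directions. The 267 became 24 when tumor spots rich in neuron and oligodendrocyte markers were left out (over the 95th percentile of the deep spots of their section, an alternative chosen after seeing the data), which kept 70 rim spots in section 1 and 81 in section 2. Of the 267 genes, 5 were among these 24 and 191 kept a higher value at the rim of both sections at any size. Values from these neural-poor spots are given beside the results below, where levels of single genes keep the TMM factors of all spots, while counts and list medians use factors of their own. In neural-poor spots 18225 genes were tested, of which 4514 were higher and 7192 lower at both rims. Their median log2 differences were -0.06 and -0.07. The split by direction depends on the scaling: 48.2% of genes with the same sign were higher at the rim with TMM, 37.3% with RLE factors (4665 higher and 7845 lower) and 72.9% with library size alone (8236 and 3065). Over all genes tested the median log2 difference was -0.01 in both sections with TMM, -0.09 in both with RLE factors, and 0.13 and 0.09 with library size alone.

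**Figure D2:**
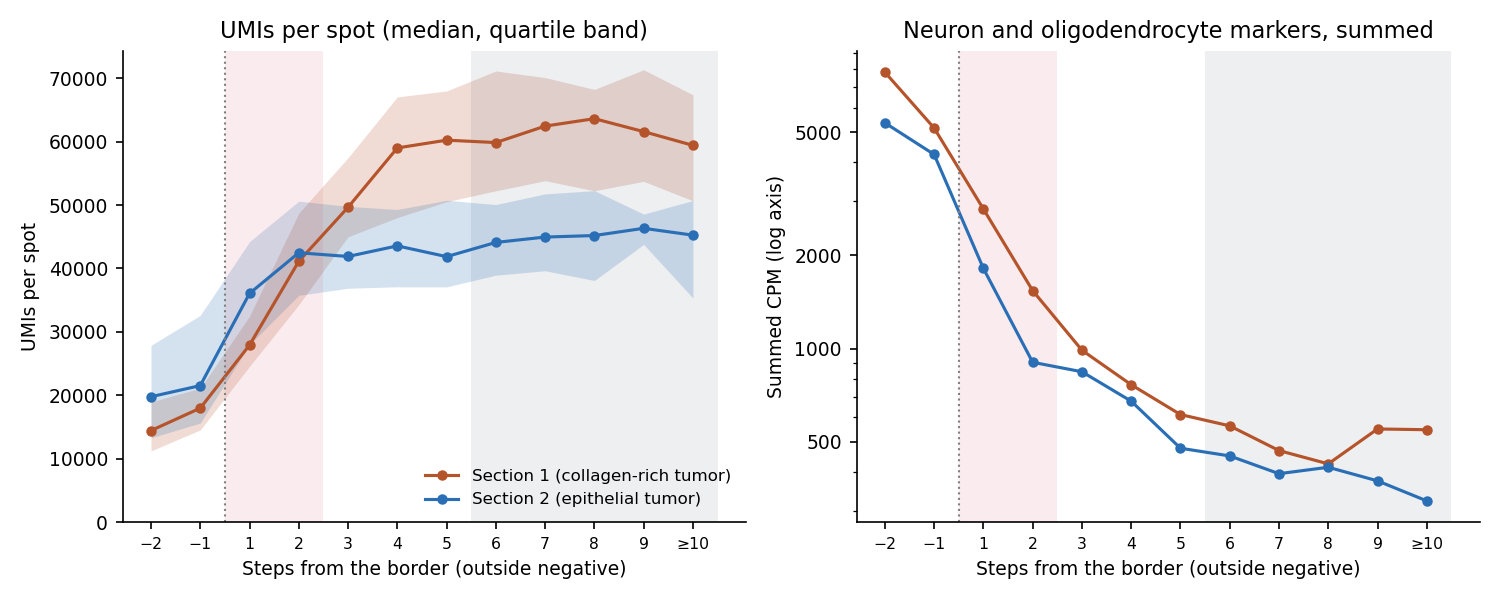
By steps from the border (negative outside the tumor, the last point 10 or more steps inside), the left panel plots UMIs per spot, with the median as points and the quartiles as a band, and the right panel the summed CPM of neuron, granule and Purkinje cell, and oligodendrocyte markers on a log axis. The medians go from 17993 and 21545 UMIs at the first step outside to 59398 and 45249 at the last point in sections 1 and 2, and the markers drop across the border in both. Pink marks the rim, grey the deep interior.

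Oligodendrocyte markers had the largest median difference of the 37 gene lists in both sections. *Mobp*, a structural protein of myelin, was measured at 199 CPM at the rim and 18.6 in the deep interior of section 1, and 93.2 and 11.2 in section 2. It rose at the rim by 3.24 ± 0.14 on the log2 scale (n = 2 sections, edgeR quasi-likelihood adjusted p = 0.0142). The ± values here are SEs implied by the test statistic of the fit, not SEs over the 2 sections' own differences. *Olig1*, a transcription factor of the lineage, was at 19.8 CPM at the rim and 2.70 in the deep interior of section 1, and 21.2 and 2.87 in section 2. It rose by 2.87 ± 0.17 on the log2 scale (edgeR quasi-likelihood adjusted p = 0.0338). *Cldn11*, the claudin of myelin's tight junctions, was at 78.6 CPM at the rim and 8.67 in the deep interior of section 1, and 54.5 and 3.75 in section 2. It rose by 3.43 ± 0.23 on the log2 scale (edgeR quasi-likelihood adjusted p = 0.0458). In both sections all 3 had rim levels between those of the deep interior and the outside tissue, where *Mobp* stood at 617 and 358 CPM, *Olig1* at 71.4 and 79.6 CPM and *Cldn11* at 327 and 242 CPM. In neural-poor spots, which were selected for low levels of lists that hold *Mobp* and *Cldn11*, so that a drop was built in, the rim levels were 32.3 and 13.4 CPM for *Mobp* (deep 16.1 and 9.93), 7.53 and 3.28 CPM for *Olig1* (deep 2.66 and 2.78) and 15.1 and 7.76 CPM for *Cldn11* (deep 8.28 and 3.44), and edgeR called none. None of the 3 was called either with depth 2 alone as the rim or without the section as a block, and *Mobp* alone was called with RLE factors.

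Of the 8 oligodendrocyte markers, 7 were higher at the rim in both sections, 2 of them called, with a median log2 difference of 2.99 in section 1 and 2.82 in section 2, where 30.8% of all genes were higher at both rims and the median was -0.01. *Mag*, which holds myelin to the axon, *Bcas1*, a marker of myelin-forming oligodendrocytes, and *Mbp*, the protein that compacts myelin, had the same direction: *Mbp* was at 679 against 81.8 CPM in section 1 and 333 against 88.8 CPM in section 2 and *Bcas1* at 56.6 against 5.78 CPM in section 1 and 27.7 against 1.37 CPM in section 2. The summed list lay 27.1% of the way from deep interior to outside at the rim of section 1 and 22.7% in section 2.

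Neuronal transcripts showed the same order at a smaller size. Of 11 neuron markers, 10 were higher at the rim in both sections (median log2 difference 1.22 and 1.67, none called), and their sum at the rim lay 28.1% and 18.6% of the way to the outside level. *Stmn2*, a regulator of microtubules in axons, was at 118 CPM at the rim and 30.9 in the deep interior of section 1, and 82.4 and 12.5 in section 2. *Scg2*, a precursor of neuropeptides stored in secretory granules, was at 26.0 CPM at the rim and 4.53 in the deep interior of section 1, and 30.3 and 4.12 in section 2, and in neural-poor spots its rim level was still 13.6 and 9.84 CPM against 4.06 and 3.04 CPM. *Npy*, a neuropeptide, and *Stmn4*, a neuronal relative of *Stmn2*, were also among the 10 genes with the largest same-direction difference. The 10 granule and Purkinje cell markers had 7 members higher in both sections (median 1.14 and 0.99, none called). The share of all genes higher at both rims was 30.8%.

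*Apod*, a lipid-binding lipoprotein of glia and fibroblasts, was at 1001 CPM at the rim and 162 in the deep interior of section 1, and 293 and 21.3 in section 2. In neural-poor spots it was at 405 and 154 CPM in section 1 and 45.6 and 16.1 CPM in section 2. Astrocyte markers were not uniform. *Gfap*, the intermediate filament of astrocytes, was at 1152 CPM at the rim and 73.0 CPM in the deep interior of section 2. *Gja1*, a gap junction protein, was at 2875 and 3912 CPM there. It was more abundant in that tumor than in the adjoining tissue, at 1002 CPM at the first step outside and 3917 at depth 6. The summed astrocyte markers were at 1840 CPM at the rim and 1676 in the deep interior of section 1, and 4703 and 4232 in section 2. Of the 9 astrocyte markers, 6 were higher at the rim of both sections (median 0.26 and 2.80, none called), against 30.8% of all genes.

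Of 12 genes of lipid-laden macrophages, 7 were higher at the rim of both sections, 5 had opposite signs and none passed the test, with a median log2 difference of 0.83 and 1.14. Among all genes tested, 30.8% were higher at both rims and 6703 of 18562 had opposite signs. In neural-poor spots, 4 genes of the list were higher and 2 lower in both, with medians of 0.12 and 0.20. All 18225 genes tested there had 4514 higher and 7192 lower in both, with medians of -0.06 and -0.07. Neuron markers summed to 353 and 232 CPM at the rim of sections 1 and 2 and 129.6 and 41.7 CPM in the deep interior. Oligodendrocyte markers summed to 1439 and 897 against 266 and 258 CPM. By depth in section 1, neuron markers went from 483 CPM at depth 1 to 145 at depth 4, and the lipid-laden list from 18101 to 16490 CPM. Beyond the values in neural-poor spots, the part of neural tissue in the differences of the lipid-laden list was not tested.

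*Gpnmb*, a membrane glycoprotein of lipid-loaded phagocytes, was at 883 CPM at the rim and 209 in the deep interior of section 1, and 219 and 17.7 in section 2. In neural-poor spots it was at 257 and 210.4 CPM in section 1 and 34.6 and 13.4 CPM in section 2. The difference shrank in both sections under that choice but kept its direction. By depth, *Gpnmb* in section 1 was still at 804 CPM at depth 4, near its 926 CPM at depth 1, and reached 39.0 CPM at 10 or more steps, while in section 2 it went from 334 CPM at depth 1 to 107 at depth 2. *Spp1* (osteopontin, a secreted phosphoprotein of macrophages and injured tissue) was at 7614 CPM at the rim and 4580.2 in the deep interior of section 1, and 2734 and 1028 in section 2, and in neural-poor spots at 6248 and 4651 CPM and 1198 and 1000.2 CPM. *Fabp5*, a fatty acid carrier, was at 758 CPM at the rim and 167 in the deep interior of section 1, and 183 and 77.0 in section 2, with 292 against 167 and 85.0 against 74.6 CPM in neural-poor spots. The scavenger receptor *Cd36* was at 124 against 19.1 CPM in section 1 and 8.18 against 2.5 CPM in section 2. *Apoe*, a lipid carrier of macrophages and astrocytes and 1 of the 5 with opposite signs, was at 4233 CPM at the rim and 5979 in the deep interior of section 1, and 2825 and 980.3 in section 2.

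*Arg1*, the arginase that splits arginine into ornithine and urea and marks alternatively activated macrophages, was at 551 CPM at the rim and 19.0 in the deep interior of section 1, and 510.4 and 308 in section 2. The rim level was 29.0 times the deep level in section 1 (95% counting interval 26.2 to 32.3) and 1.66 times in section 2 (1.58 to 1.74), and these intervals cover counting error only. The edgeR quasi-likelihood p over both sections was 0.0531 before adjustment and 0.475 after Benjamini-Hochberg adjustment. Its level outside the tumor was higher still, at 687 and 1229 CPM.

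Within section 1 *Arg1* was uneven from spot to spot. The lower quartile, median and upper quartile of rim spots were 0, 472 and 976 CPM, and those of deep spots 0, 11.4 and 24.4 CPM. In section 2 the rim quartiles were 193, 322 and 522 CPM and the deep quartiles 159.9, 231 and 318 CPM, so that the zones overlapped widely. By depth, section 1 went from 664 CPM at depth 1 to 478 at depth 2, 232 at depth 3, 43.1 at depth 6 and 7.54 at 10 or more. In section 2 the same depths gave 645, 382, 309, 319.9 and 183 CPM. In neural-poor spots *Arg1* was at 144 CPM at the rim and 19.1 in the deep interior of section 1, and 336 and 304 CPM in section 2, which left little difference in section 2.

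Other genes of myeloid cells shared the sign of *Arg1* and differed in how far their values changed when neural-rich spots were left out. Neuron and oligodendrocyte markers were higher at depth 1 than at depth 2 in both sections. Neural content and distance from the border therefore cannot be told apart by this choice. *Hmox1*, which breaks down heme, was at 633 against 50.7 CPM in section 1 and 193 against 152 CPM in section 2, and *Mmp12*, the macrophage elastase, at 217 against 10.8 CPM in section 1 and 65.7 against 44.9 CPM in section 2. In neural-poor spots *Hmox1* was at 160.2 against 50.7 CPM and 139.6 against 154 CPM, and *Mmp12* at 39.8 against 11 CPM and 42.4 against 44.2 CPM, so that in section 2 both turned slightly lower at the rim. The chemokine *Ccl6* was at 213 against 34.3 CPM in section 1 and 229 against 67.5 CPM in section 2, and remained higher at the rim of both sections in neural-poor spots (58.1 against 34.8 and 109 against 65.9 CPM). *Mt1*, a metal-binding protein, was at 2194 against 1265 CPM in section 1 and 2331 against 1142 CPM in section 2, but in neural-poor spots at 1069 against 1146 and 1228 against 1119 CPM. General macrophage markers were divided. *Cd68*, a lysosomal protein of macrophages, was at 906 against 532 CPM in section 1 and 187 against 112 CPM in section 2, but in neural-poor spots at 473 against 535 and 112 against 108 CPM. Of 12 markers, 5 were higher and 2 lower in both sections (median -0.07 and 0.31), and of 8 markers of homeostatic microglia 3 were higher and 2 lower. Among all genes tested, 30.8% were higher and 33.1% lower at both rims.

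**Figure D3:**
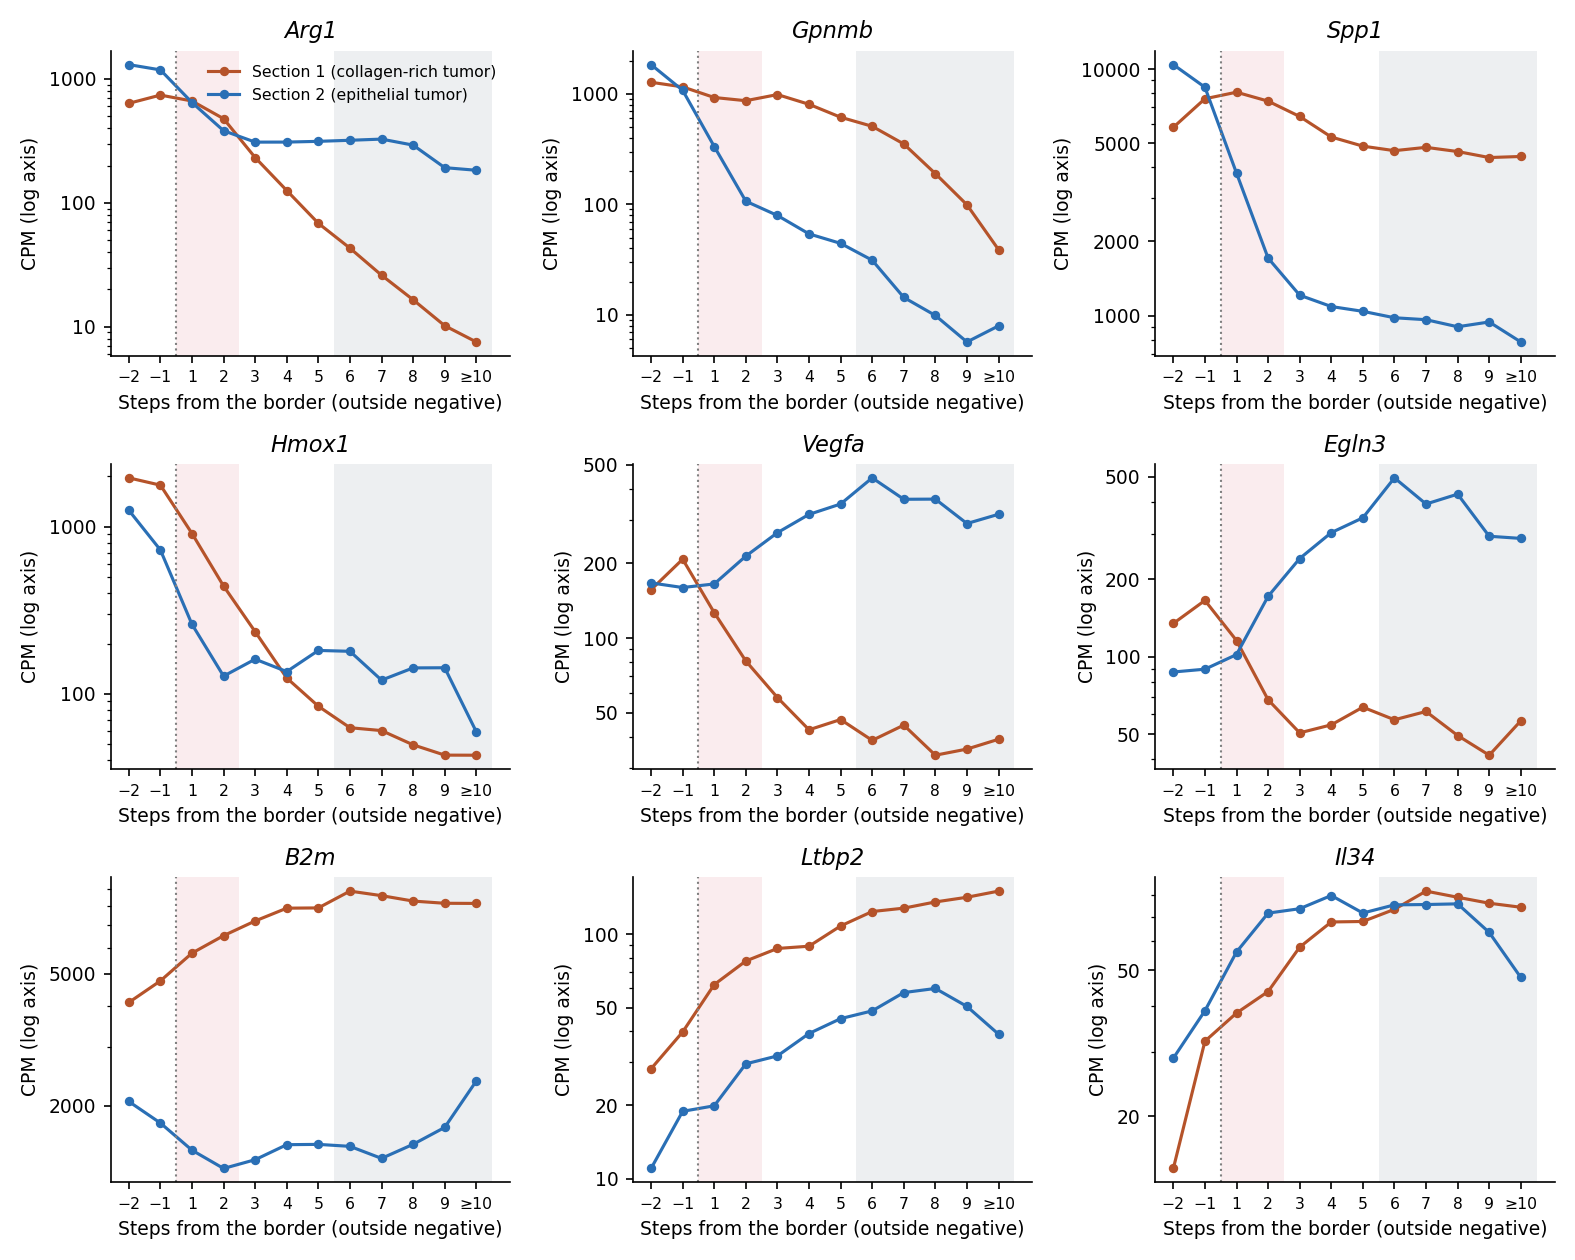
Level of genes in TMM-scaled CPM (log axes) by steps from the border in sections 1 and 2, from 2 steps outside (negative) to 10 or more inside, with the rim in pink and the deep interior in grey. *Arg1* goes from 551 CPM over the rim to 19.0 CPM in the deep interior of section 1 but from 510.4 to 308 CPM in section 2, *Vegfa* and *Egln3* part in opposite directions, and *Ltbp2* is lower at the rim than in the deep interior of both.

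Endothelial genes were a little more abundant at the rim. Of 9 markers, 8 were higher in both sections and none was lower in both (median log2 difference 0.60 and 0.43, none called by edgeR, 4 with an unadjusted p under 0.05). Of all 18562 genes, 30.8% were higher at both rims and 1479 were higher with such a p. With depth 2 alone as the rim, 4 were higher in both, and in neural-poor spots 3 were higher and 1 lower. Over all genes tested, 4556 of 18062 were higher in both with depth 2 alone. In neural-poor spots 4514 of 18225 were higher and 7192 lower. *Cldn5*, the claudin of brain endothelium, was at 125 against 76.8 CPM in section 1 and 139 against 67.2 CPM in section 2. The adhesion molecules *Cdh5* and *Esam* were at 71.3 against 43.4 CPM in section 1 and 61.1 against 45.1 CPM in section 2, and at 45.4 against 24.9 CPM in section 1 and 52.4 against 38.0 CPM in section 2, respectively.

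Some genes had a higher level at the rim than in both the deep interior and the outside tissue. In both sections this held for 695 genes (3.74%), 307 of them with at least 100 UMIs in each section, and 484 (2.61%) had a rim level below both, 223 with that many UMIs. The main edgeR fit called none of these against either side, but over all genes it called only 3 against the deep interior and none against the outside tissue. DESeq2 called *Fibin*, described below, between rim and deep interior. *Plau*, the urokinase that activates plasminogen, was at 154 CPM at the rim and 103 in the deep interior of section 1, and 187 and 135 in section 2, with 116 and 129 CPM outside. *Prnd* (doppel, a relative of the prion protein found in young brain endothelium) was at 15.2 CPM at the rim and 5.64 in the deep interior of section 1, and 9.70 and 5.87 in section 2, with 4.33 and 8.73 CPM outside. *Erfe*, a hormone that lowers hepcidin, was at 17.4 against 6.50 CPM in section 1 and 11.9 against 7.37 CPM in section 2, with 5.87 and 7.30 CPM outside. *Adamts12*, a secreted metalloprotease, was at 55.0 against 33.8 CPM in section 1 and 17.2 against 11.6 CPM in section 2, with 16.1 and 12.4 CPM outside, and *Fibin*, a secreted protein, at 23.1 against 13.2 CPM in section 1 and 33.5 against 21.5 CPM in section 2, with 18.9 and 25 CPM outside. For *Prnd* in section 2 the rim was close to the outside level, and for *Adamts12* in section 1 the tumor of depth 3 to 5, at 56.9 CPM, was above the rim. By steps in section 1, *Fibin* was at 23.8 CPM at the first step outside, 16.9 at depth 1 and 27.9 at depth 2. Its outermost tumor layer there was thus below the tissue next to it. In neural-poor spots *Plau* was at 99.3 CPM at the rim and 102 in the deep interior of section 1, which turned its direction, and at 150.1 and 130.4 CPM in section 2, while *Prnd*, *Erfe*, *Adamts12* and *Fibin* stayed above the deep interior in both.

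Genes of class I antigen presentation were less abundant at the rim. All 9 members measured were lower at the rim of both sections, with a median log2 difference of -0.60 and -0.34, and none was called. Of all genes, 33.1% were lower at both rims. The count of 9 held with RLE factors and in neural-poor spots (medians -0.55 and -0.68), and was 8 with library size as the only scaling. All genes lower at both rims numbered 7845 of 18562 with RLE factors and 3065 with library size alone. In neural-poor spots they numbered 7192 of 18225. *B2m*, the light chain shared by all class I molecules, was at 6143 CPM at the rim and 8419.8 in the deep interior of section 1, and 1372 and 1804 in section 2. In neural-poor spots it was at 6664 and 8463 CPM in section 1 and 1126 and 1804 CPM in section 2. By depth, *B2m* in section 2 was at 1469.8 CPM at depth 1, 1389 at depth 7 and 2376 at 10 or more steps (23 spots), so that its highest level lay in the innermost spots, whereas in section 1 it climbed from 5771 CPM at depth 1 to 8873 at depth 6. In section 2 the summed class I list stood at 3005 CPM at depth 1, 3059.8, 2791 and 3112 at depths 6 to 8 and 4825 at 10 or more steps. The heavy chain *H2-K1* was at 669.9 against 901 CPM in section 1 and 197 against 286 CPM in section 2. *Tap1*, a subunit of the pump that carries peptides to class I molecules, was at 217 against 337 CPM in section 1 and 58.2 against 80.0 CPM in section 2.

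Interferon-induced genes leaned the same way. Of 13 measured, 11 were lower at the rim of both sections with each of the 3 scalings (median -0.26 and -0.39, none called, 1 with an unadjusted p under 0.05), and 10 in neural-poor spots. Over all genes tested, 33.1% were lower at both rims, and in neural-poor spots 7192 of 18225 were. Their summed level in section 2 was 1728 CPM at depth 1 and 1580.4, 1351 and 1615 CPM at depths 6 to 8, and the higher level of the deep zone lay in the innermost spots, with 2208 CPM at depth 9 and 3908 at 10 or more steps (30 and 23 spots). *Gbp2*, a GTPase that attacks pathogen vacuoles, was at 334 against 552 CPM in section 1 and 78.4 against 87.8 CPM in section 2, and *Bst2*, which tethers budding virus to the cell, at 611 against 697 CPM in section 1 and 409.9 against 537 CPM in section 2. *Ifit3*, an antiviral adaptor, differed little, at 81.8 against 91.5 CPM in section 1 and 49.8 against 55.4 CPM in section 2. *Rsad2*, the antiviral enzyme viperin, had opposite signs, at 39.2 against 23.8 CPM in section 1 and 52.7 against 91.1 CPM in section 2.

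The promoters of both lists were searched for the core of the interferon-stimulated response element, because members of these lists moved together in sign. The motif was GAAANNGAAA on either strand, in the window from 250 bases before to 50 bases after the start of each gene, in RefSeq sequence of GRCm38.p6. Of 32851 promoter windows of 300 bases, 3.44% held it, and of 27025 gene symbols 3.99% had a window that did. Promoters were matched for 7 of the 9 class I genes, of which 1 held the motif (*B2m*), and for 11 of the 13 interferon-induced genes, of which 7 did (*Ifit1*, *Ifit3*, *Oas1a*, *Rsad2*, *Bst2*, *Gbp2* and *Gbp3*). A match describes the letters of a promoter, is not a binding site and does not bear on the difference between rim and deep interior. The 5 windows of 30 bases shown are from genes with values in the paragraphs above, written on the gene's strand with the motif in capitals (TTTC first where the motif lies on the other strand, and a run longer than the motif where 2 copies overlap). They are at chr2:122147538-122147567 (+), chr3:142620594-142620623 (+), chr8:71537583-71537612 (-), chr19:34583397-34583426 (+) and chr12:26456553-26456582 (-), in the order of the lines.
B2m: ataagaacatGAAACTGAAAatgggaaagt
Gbp2: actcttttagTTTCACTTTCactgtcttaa
Bst2: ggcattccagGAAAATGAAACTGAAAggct
Ifit3: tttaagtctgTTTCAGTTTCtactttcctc
Rsad2: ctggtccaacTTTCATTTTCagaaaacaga

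*B2m* and *Gbp2* were lower at the rim of both sections and *Rsad2* at that of section 2 alone. Chemokines were divided, with 5 of 18 higher and 4 lower at both rims and 9 of opposite sign. Of all genes, 30.8% were higher and 33.1% lower at both rims, and 6703 of 18562 had opposite signs. *Ccl5*, a chemokine made by T cells and other immune cells, was at 239.9 CPM at the rim and 507 in the deep interior of section 1, and 20.7 and 44.6 in section 2, the only gene lower by over 1 log2 unit in both sections, with an unadjusted edgeR p of 0.0400 and a Benjamini-Hochberg adjusted p of 0.453. By depth, *Ccl5* in section 1 went from 225 CPM at depth 1 to 546 at depth 6. In section 2 it was uneven, at 23.3 and 18.4 CPM at depths 1 and 2. There it stood at 69.0 CPM at depth 6, 17.9 at depth 7, 25.3 at depth 8, 50.6 at depth 9 and 28.3 at 10 or more. *Cxcl10*, the interferon-induced ligand of CXCR3, was at 145 against 207 CPM in section 1 and 56.7 against 104 CPM in section 2, and *Cxcl16*, a ligand of CXCR6, at 311 against 519 CPM in section 1 and 301 against 437 CPM in section 2. Markers of T cells themselves were lower in both sections for 3 of 9 genes, near the share of all genes, and opposite for 6 (median -0.70 and 0.37). Class II genes had medians of -1.25 and 0.03. *Cd74*, the chain that guides class II molecules, was at 6677 against 16047 CPM in section 1 and 257 against 307 CPM in section 2, and in neural-poor spots all 7 class II genes were lower at the rim of both sections (medians -0.67 and -0.59). Over all genes tested in those spots, 7192 of 18225 were lower at both rims, with medians of -0.06 and -0.07.

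Genes of cholesterol synthesis and uptake were also less abundant at the rim. This list of 20 genes was written after the values of some of its members had been seen, so that its count is a description of a chosen list. Of 19 tested, 17 were lower in both sections (medians -0.41 and -0.57, 9 with an unadjusted edgeR p under 0.05, none called, where 33.1% of all genes were lower at both rims and 2.65% were lower with such a p), with each of the 3 scalings and in neural-poor spots alike. In neural-poor spots, 7192 of all 18225 genes tested were lower at both rims. *Cyp51*, an enzyme of the late pathway, was at 31.2 CPM at the rim and 48.5 in the deep interior of section 1, and 37.1 and 67.7 in section 2, without passing the test.

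The other genes named as lowest at the rim, by the smaller of the differences in the 2 sections, had mixed roles. *Ltbp2*, which binds fibrillin microfibrils, was at 70.4 CPM at the rim and 139 in the deep interior of section 1, and 24.4 and 57.6 in section 2. *Megf6*, a secreted protein with EGF repeats, was at 87.2 CPM at the rim and 179 in the deep interior of section 1, and 40.2 and 79.3 in section 2. *Fndc1*, which carries fibronectin domains, was at 201 against 354 CPM in section 1 and 116 against 224 CPM in section 2, *Cdon*, a co-receptor for hedgehog ligands, at 36.4 against 78.1 CPM in section 1 and 131 against 218 CPM in section 2, and *Gfra2*, the neurturin receptor, at 37.7 against 64.4 CPM in section 1 and 68.2 against 119 CPM in section 2. *Spin4*, a chromatin reader, was at 7.69 against 13.1 CPM in section 1 and 5.45 against 12.2 CPM in section 2, and *Msln*, a surface protein of mesothelium, at 3.08 against 5.59 CPM in section 1 and 52.9 against 91.1 CPM in section 2. All 7 were chosen for being lower at the rim of both tumors, so their shared direction is part of the choice. The main edgeR fit called none of them. DESeq2 called *Cdon*, *Fndc1*, *Gfra2*, *Ltbp2*, *Megf6* and *Spin4*, and edgeR on the tumor zones alone called the same genes except *Spin4*.

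The axis of IL34 and CSF1R, which sustains microglia and many macrophages, had no common direction. *Il34*, a ligand of the receptor, was at 41.1 CPM at the rim and 76.7 in the deep interior of section 1, and 63.2 and 77.5 in section 2, and outside at 24.1 and 34.7 CPM. In section 2 its level was 56.1 CPM at depth 1 and stayed between 71.6 and 79.9 CPM from depth 2 to depth 8. It was lower in the innermost spots, at 63.4 CPM at depth 9 and 47.8 at 10 or more (30 and 23 spots). *Csf1*, the other ligand, was at 34.4 against 51.5 CPM in section 1 and 22.7 against 23.6 CPM in section 2, and the receptor *Csf1r* at 262 against 485 CPM in section 1 and 112 against 106 CPM in section 2. Of the 7 genes of the axis, 3 were higher and 2 lower at the rim of both sections (median -0.19 and 0.08). *Tgfb1*, a ligand that restrains immune cells and induces matrix, was nearly level, at 290.1 against 283 CPM in section 1 and 217 against 215 CPM in section 2, while 6 of the 9 genes of its family and receptors were lower in both (7 with RLE factors and 3 with library size alone). Over all genes tested, 30.8% were higher and 33.1% lower at both rims. The genes lower at both numbered 6137 of 18562 with TMM, 7845 with RLE factors and 3065 with library size alone.

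Oxygen-responsive genes went opposite ways in the 2 tumors. Of 15 genes of hypoxia and glycolysis, 14 were higher at the rim of section 1 and lower at the rim of section 2, with medians of 0.60 and -0.77. Over all genes tested, 3329 of 18562 had these signs. *Vegfa*, the growth factor of vessels, was at 99.2 CPM at the rim and 39.0 in the deep interior of section 1, and 188 and 406 in section 2. *Adm*, a vasodilator peptide, was at 39.2 against 5.54 CPM in section 1 and 60.3 against 133 CPM in section 2, *Egln3*, an oxygen-sensing hydroxylase, at 87.5 against 54.8 CPM in section 1 and 136 against 443 CPM in section 2, and *Car9*, an acid-handling carbonic anhydrase, at 29.1 against 9.83 CPM in section 1 and 107 against 189 CPM in section 2. In neural-poor spots the median was -0.15 in section 1 and -0.59 in section 2, with 9 of the 15 genes lower at both rims, so that the median of section 1 changed sign without its neural-rich spots. Over all genes tested in neural-poor spots, 7192 of 18225 were lower at both rims. With 1 section of each kind, a difference between the tumors was not tested.

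Proliferation genes leaned opposite ways as well. Of 15 cell cycle genes, 12 were lower at the rim of section 1 and higher at that of section 2 (medians -0.38 and 0.19). Over all genes tested, 3374 of 18562 had these signs. *Mki67*, a marker of dividing cells, was at 121 against 172 CPM in section 1 and 176 against 166 CPM in section 2. In neural-poor spots 11 of the 15 were lower at both rims, with medians of -0.38 and -0.13. Over all genes tested in neural-poor spots, 7192 of 18225 were lower at both rims, with medians of -0.06 and -0.07. Of 9 immediate early genes, the first to respond to growth signals, 8 were higher at the rim of section 1 and lower at that of section 2 (medians 0.28 and -0.25). Signs of that kind were found for 3329 of all 18562 genes. None of these genes was called.

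Single epithelial genes of section 2 are given as values alone, since they are not independent of the epithelial rule and were chosen after their values were seen. *Krt14*, *Krt17* and *Krt5*, keratins of basal epithelium, were at 1189.6, 917 and 183 CPM at the rim and 884, 638 and 109 CPM in the deep interior. *Cldn4*, a tight junction protein, and *Elf3*, an epithelial transcription factor, were at 797 and 185 CPM at the rim and 1202 and 271 CPM inside. The EGF receptor ligand *Areg* was at 44.4 CPM at the rim and 104 CPM inside.

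**Figure D4:**
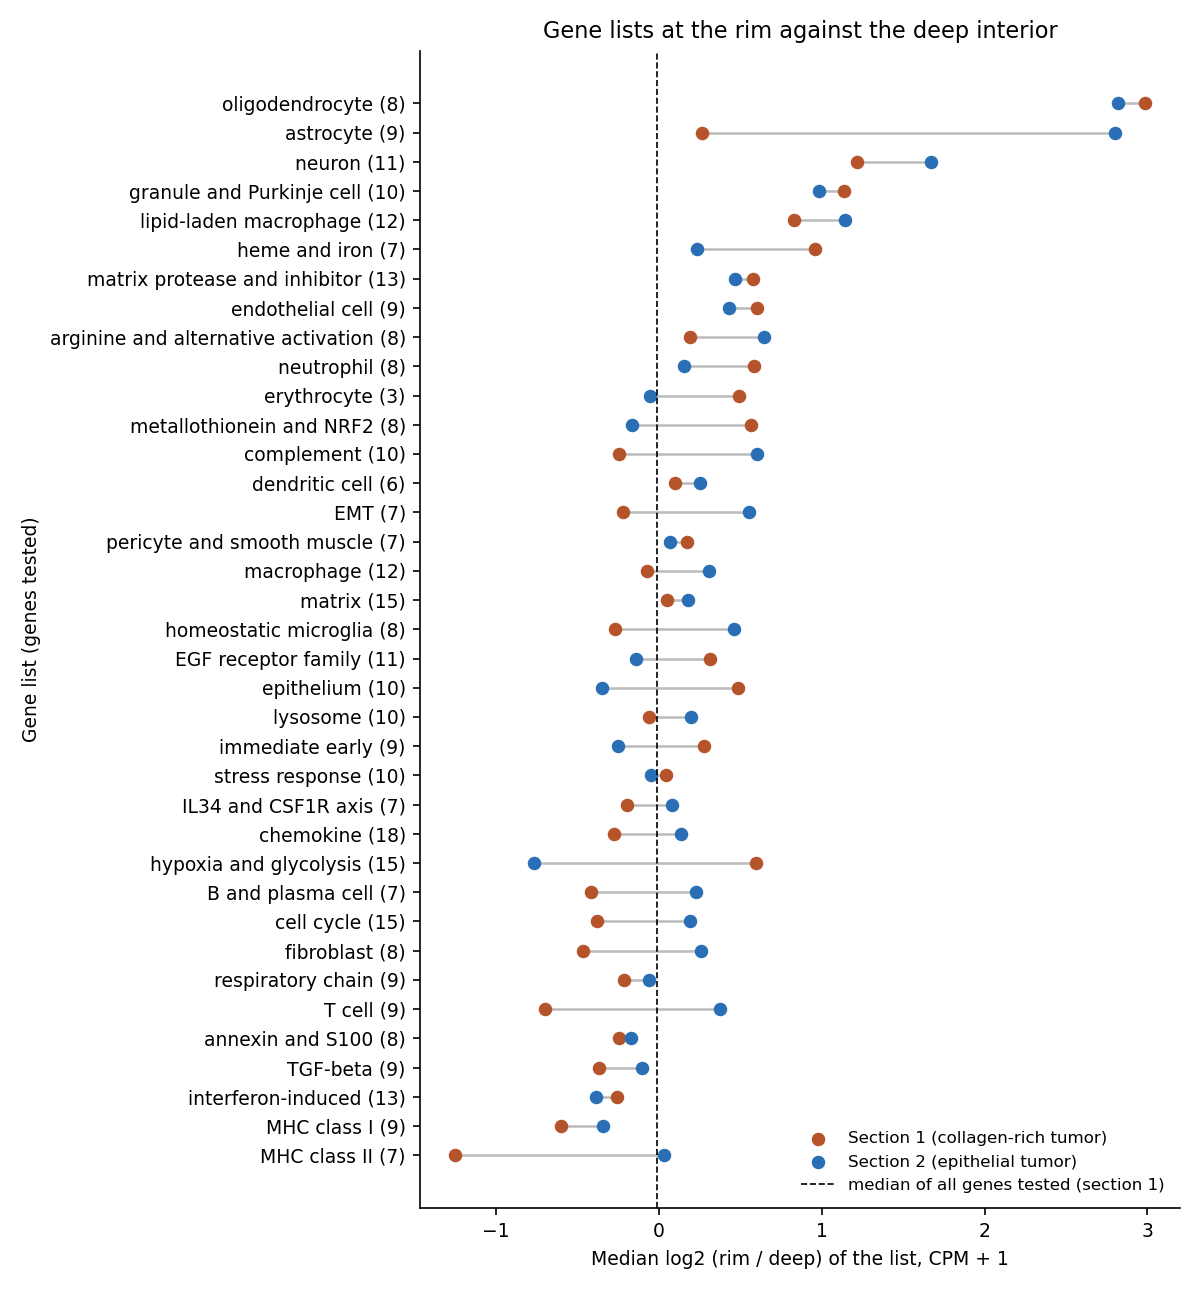
Median log2 difference, rim minus deep interior, of each gene list in section 1 and section 2. Oligodendrocyte markers are farthest to the right in section 1 at 2.99, with 2.82 in section 2, MHC class I is to the left of 0 in both, at -0.60 and -0.34, and hypoxia is split at 0.60 and -0.77.

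The remaining lists showed weaker or divided values, with no gene called by the main edgeR fit. Of all genes tested, 30.8% were higher and 33.1% lower at both rims, and several of the counts below stand near these shares. Opposite signs were found for 6703 of 18562 genes, 3329 of them higher in section 1 alone. Of 9 respiratory chain genes 5 were lower at both rims (8 with RLE factors and 1 with library size alone), and of 8 annexin and S100 genes 5 were lower. All genes lower at both rims numbered 7845 of 18562 with RLE factors and 3065 with library size alone. Neutrophil markers were higher in both sections for 5 of 8, and matrix proteases and inhibitors for 6 of 13 with 2 lower. Matrix genes were higher in both for 5 of 15 and lower for 1, with 9 of opposite sign. Lysosome genes were higher in both for 4 of 10, complement for 3 of 10 with 1 lower, and EMT regulators for 2 of 7. Genes of arginine use and alternative activation were higher in both for 4 of 8, heme and iron genes for 3 of 7 and dendritic cell markers for 4 of 6, each with 1 lower in both, and pericyte and smooth muscle markers for 3 of 7. Metallothionein and NRF2 genes were higher in both for 3 of 8 and higher in section 1 alone for 5, and EGF receptor family genes for 4 and 5 of 11. Stress response genes were higher in both for 2 of 10 and lower for 2, B and plasma cell markers lower for 2 of 7, fibroblast markers lower for 3 of 8, epithelial markers higher for 2 of 10 and erythrocyte genes for 1 of 3.

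**Figure D5:**
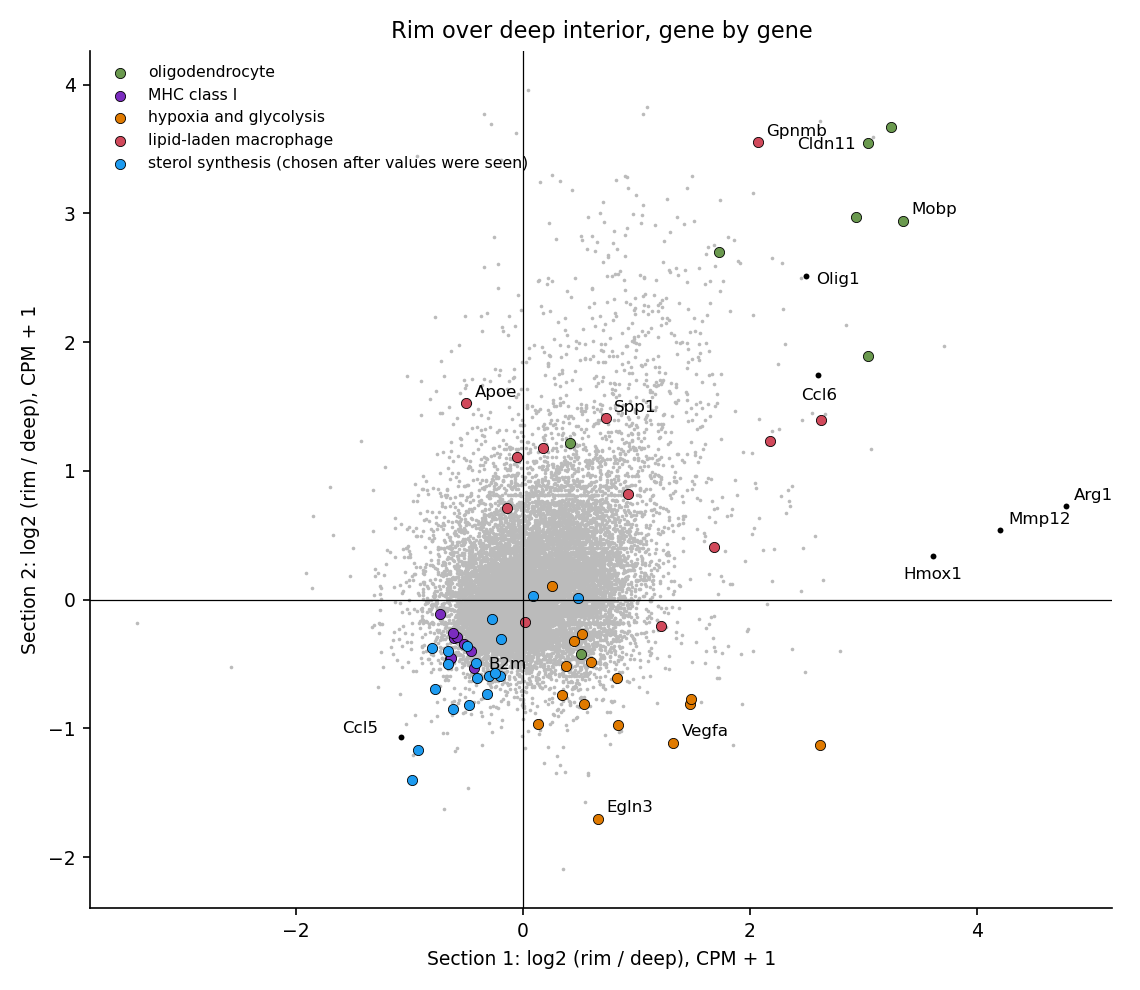
Difference between rim and deep interior of each gene tested (1 per symbol), as log2(CPM + 1) in section 1 (horizontal) and section 2 (vertical), with 5 gene lists in color. Myelin genes such as *Mobp* lie at the upper right, *Ccl5* at the lower left, *Arg1*, *Mmp12* and *Hmox1* far to the right at small positive heights, and *Vegfa* and *Egln3* at the lower right.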

How the data were processed

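Both sections (1 mouse each) were cut from formalin-fixed, paraffin-embedded cerebellum with tumor and profiled by Visium CytAssist. The deposited tables hold unnormalized UMI counts for every gene in every spot under tissue, which the authors made with Space Ranger 2.1.1 (submitters' processing notes, build mm10). The files hold 19465 genes, with 63986887 UMIs over 3406 spots in section 1 and 71878333 over 4017 in section 2. No spot was removed from the tissue, and 11 gene symbols occur more than once (the first entry was used in lists).

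Counts were summed by section and zone into 8 libraries and scaled with TMM (factors 0.870 to 1.23). Genes were filtered with filterByExpr, which left 18562. The model held zone and section, with 3 residual degrees of freedom, and was fitted with glmQLFit and glmQLFTest of edgeR 4.0.16 (limma 3.58.1, R 4.3.3), at an adjusted p of 0.05. The section was a block because all zones of a section come from 1 mouse (common dispersion 0.0465 with it and 0.297 without). Spots are not replicates and entered no test. Python 3.11.15 with numpy 2.4.6, pandas 2.3.3 and scipy 1.17.1 computed depths, log2(CPM + 1) differences and exact Clopper-Pearson intervals, and matplotlib 3.10.9 drew the plots. The fit was also run on simulated counts, with a dispersion set below that of these data and with genes changed in the rim libraries alone. That run therefore does not show how the fit performs on these data.

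Members and all 37 gene lists were chosen with earlier results of these data known, and the list of sterol genes was added later. Named genes, among those with at least 100 UMIs in each section, were the 10 most raised and the 10 most lowered at both rims. They were ranked by the difference from the deep interior in the section where it was smaller in size. Another 10 were named among genes with a rim level above both neighbors. These were ranked in the same way against the deep interior, not by their distance above the outside tissue. Also named were members of each list and 18 genes listed one by one, such as *Arg1*, *Il34* and *Tgfb1*. Other list members in the text, such as *Krt14*, *Cxcl10* and *H2-K1*, were chosen after their values were seen. Genes without a probe, such as *Krt18*, *Isg15* and *Mx1*, were not analysed here. Alternatives were DESeq2 1.42.0, RLE factors, library size alone, no filter, no block, other pseudocounts (0.1 and 5), tumor zones alone, other depths, marker levels and UMI minimums, the largest mass alone, spots away from the tissue edge, spots poor in neural markers, each section alone, and neighbors counted under tissue alone. Results of some genes are not reported here.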

Additional observations from a re-analysis of the deposited data

How the results depend on the processing

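With 2 sections the fit had 3 residual degrees of freedom, which limits what could be called, and every count rests on 1 mouse per tumor type. Of 3 genes called higher at the rim than in the deep interior, DESeq2 called 180, RLE factors 1, tumor zones alone 23, depth 1 alone as the rim 9, depth 2 alone 0, depth 8 or more as the deep interior 5, marker levels at 0.5 of those stated 7, neighbors under tissue alone 5, and each of the choices without neural-rich spots 0. Without the replicate block (the pairing of zones by section) edgeR called 0 genes. Genes called lower numbered 80 with DESeq2 and 9 with tumor zones alone. Against the outside tissue, where edgeR called none, DESeq2 called 1015 higher and 952 lower, depth 2 alone 655 and 604, spots poor in neural markers 329 and 336, and spots poor in neuron and oligodendrocyte markers (chosen after seeing the data) 538 and 843.

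The 267 genes higher by over 1 log2 unit in both sections became 544 with a pseudocount of 0.1, 82 with 5, 68 with depth 2 alone, 546 with depth 1 alone, 552 with marker levels at 0.5 of those stated, 406 with a UMI minimum of 10000, 129 without spots rich in neural markers and 24 without spots rich in neuron and oligodendrocyte markers. The 1 gene lower by that much became 5 with RLE factors, 0 with library size alone, 9 and 0 with pseudocounts of 0.1 and 5, 2 and 6 with depth 2 and depth 1 alone, 4 with depth 8 or more, with marker levels at 0.5 of those stated and away from the tissue edge, 6 with a UMI minimum of 10000, 3 with neighbors under tissue alone and 0 without spots rich in neuron and oligodendrocyte markers. In each section alone, with no test, 621 to 930 genes were higher and 37 to 79 lower by over 1 log2 unit, 9043 to 9089 higher and 9469 to 9513 lower at any size, and 2603 to 3570 above both neighbors.

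Genes lower at both rims numbered 3065 with library size alone, and genes above both neighbors 434 with RLE factors and 1053 without spots rich in neuron and oligodendrocyte markers. The mean ratio of summed neural markers, 1.69 between rim and deep interior, became 1.008 without those spots. That sum includes astrocyte markers, at 4232 CPM in the deep interior of section 2, against 41.7 for neuron and 258 for oligodendrocyte markers. Among them *Gja1* was at 1002 CPM at the first step outside and 3917 at depth 6, so the ratio does not measure neural content alone. *Mobp* and *Scg2* stayed higher at both rims in neural-poor spots. The choice without spots rich in neural markers used the same sum. The causes were not tested. Of 111 named genes, 1 to 16 changed the sign of their fitted difference under an alternative, 16 of them without spots rich in neuron and oligodendrocyte markers. Marker levels at 2 times the stated CPM could not be run, since they left no deep spots in section 2.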
